A study of Mus musculus with 2 samples.

Results

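The 8 genes described here act in cholesterol synthesis or in its control by SREBP2: Hmgcs1, Idi1, Fdft1, Sqle, Cyp51, Msmo1, Insig1 and Srebf2. They were chosen by name, and all 8 were found once each among the 31053 genes of the deposited count tables. The question was whether microglia that had taken up plasma protein held fewer sterol synthesis transcripts than microglia that had not. Summed over the 8 genes, the level was 113.9 CPM (UMIs, or counted molecules, per 1000000 of the library) in the plasma-negative library and 113.7 CPM in the plasma-positive library, a ratio of 0.999 with a 95% counting interval from 0.957 to 1.04. No member was lower by 20% or more in the plasma-positive library, where 5.6% of genes at 0.5 CPM or more were. In a single random draw of 1000 UMIs per cell, Hmgcs1 was, at a ratio of 0.796 (0.655 to 0.967). That interval includes its ratio of 0.946 over all UMIs, but the drawn UMIs are part of these and give no separate check. A draw of 2000 UMIs per cell gave 0.831 (0.718 to 0.962).

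The cells were microglia, the resident macrophages of the brain, sorted from the hypothalamus of young wild-type mice 20 hours after the animals received plasma protein coupled to a dye. Cells carrying the dye gave the plasma-positive library and cells without it gave the plasma-negative library, so both groups came from injected animals and no uninjected group is included. Several mice were pooled, their number and sex were not stated, and each sort gave 1 library made with a droplet kit that counts the 3′ ends of transcripts. With 1 library per group there was no replicate check and no test. The intervals below are exact, at 95%, and cover counting error only, not differences between mice, sorts or preparations.

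Cholesterol is built from acetyl groups by a chain of enzymes in the cytosol and the endoplasmic reticulum, through mevalonate, the isoprenoids, squalene and lanosterol. SREBP2 is the transcription factor that switches the genes of this chain on. When sterols are plentiful, INSIG proteins hold the SREBP escort SCAP in the endoplasmic reticulum, so that SREBP2 is not cleaved and its targets fall; when sterols run short, SREBP2 reaches the nucleus. Cells that take in lipoproteins are known to lower this programme. Microglia make cholesterol themselves and also take it up from their surroundings.

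SREBP2 binds sterol regulatory elements near the start of its target genes, which is why the stretches holding such an element are shown. RefSeq promoter windows on GRCm38.p6, of 300 bases around the start site, were found for 6 of the 8 genes, and none was used for Sqle and Fdft1. The motif TCACCCCA, the core of the classical element, was searched on both strands and lay in the windows of Hmgcs1 and Srebf2. The wider motif TCACCNCA, which includes every TCACCCCA, lay in those and in the Cyp51 window. Each of the 3 stretches is printed 5′ to 3′ on the strand of its gene, upstream of the gene's start in both RefSeq and GENCODE M21, with the motif in capitals.
Hmgcs1: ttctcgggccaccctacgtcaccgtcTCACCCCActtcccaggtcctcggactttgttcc
Srebf2: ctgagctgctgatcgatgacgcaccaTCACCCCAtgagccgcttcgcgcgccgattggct
Cyp51: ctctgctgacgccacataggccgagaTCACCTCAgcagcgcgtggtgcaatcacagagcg

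The Hmgcs1 stretch lies at chr13:119690188-119690247 on the plus strand, with the motif starting 137 bases before the RefSeq start. For Srebf2 the stretch is chr15:82147081-82147140, plus strand, and the distance is 162 bases. For Cyp51 it is chr5:4104752-4104811, minus strand, and the distance is 88 bases. Among all 32851 windows of that length in the table, TCACCCCA was present in 1.56% and TCACCNCA in 4.42%. CCAAT, the letters of the NF-Y box, and GGGCGG, those of the GC box, were each found on either strand in all 6 member windows, against 37.4% and 35.7% of all windows. These are matches of letters within a short window and nothing was measured at them here.

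The cell filters kept 9860 plasma-negative and 10362 plasma-positive cells, with 34534518 and 41984977 UMIs, the unique molecular tags that stand for captured RNA molecules. Median depth was 3270.5 and 3753 UMIs per cell. At least 3 of 11 microglia markers were seen in 99.97% and 99.99% of cells, with no marker at 0. No list of another cell type reached 3 markers in more than 4 plasma-negative or 5 plasma-positive cells, and no list summed to more than 61.0 CPM, against 47816 and 46572 CPM for the microglia list. The top value was that of the oligodendrocyte list, in which Mag alone was seen in 9.83% and 11.3% of cells.

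UMIs were counted at the transcript's 3′ end and were not corrected for length. In both libraries Msmo1 had the highest level of the 8, followed by Hmgcs1, Srebf2 and Cyp51, then Insig1, with Sqle last. The counting intervals of Srebf2 and Cyp51 overlapped in the plasma-negative library, that of Insig1 overlapped those of Idi1 and Fdft1 in the plasma-positive library, and those of Fdft1 and Idi1 overlapped in both.

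**Figure D1:**
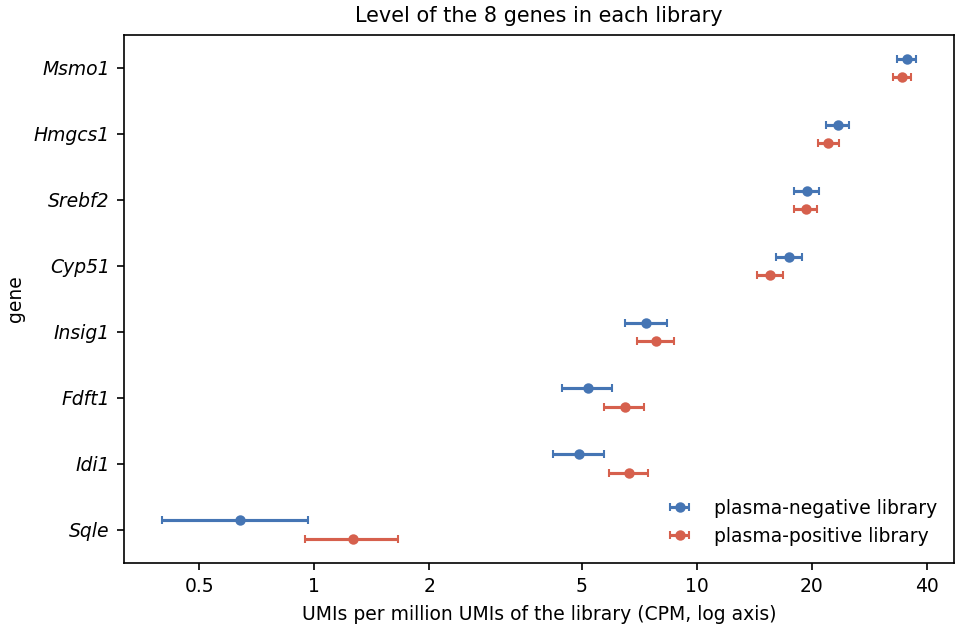
Level of each of the 8 genes in CPM (log axis), with points for the plasma-negative and plasma-positive libraries and bars for exact 95% Poisson intervals. Msmo1 lies at 35.5 and 34.5 CPM and Sqle at 0.637 and 1.26 CPM; the 2 points of a gene lie close together except for Sqle, Idi1 and Fdft1.

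Among the enzymes that lead to the isoprenoids, Hmgcs1 (ENSMUSG00000093930), which makes HMG-CoA, the precursor of mevalonate, had 808 UMIs in the plasma-negative library, or 23.4 CPM (21.8 to 25.1), and 929 UMIs in the plasma-positive library, or 22.1 CPM (20.7 to 23.6). The plasma-positive level was slightly lower, with a log2 ratio of -0.08 (-0.22 to 0.06), and the intervals of the libraries overlapped. Idi1 (ENSMUSG00000058258), the isomerase that gives the second of the isoprenoid building blocks, had 170 UMIs, or 4.92 CPM (4.21 to 5.72), against 279 UMIs, or 6.65 CPM (5.89 to 7.47). It was higher in the plasma-positive library, with a log2 ratio of 0.43 (0.15 to 0.72), and the intervals of the levels did not overlap.

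Of the enzymes from squalene onward, Fdft1 (ENSMUSG00000021273), squalene synthase, which commits isoprenoids to sterols, was at 5.18 CPM (4.45 to 6.0) from 179 UMIs in the plasma-negative library. In the plasma-positive library it was at 6.48 CPM (5.73 to 7.30) from 272 UMIs, a log2 ratio of 0.32 (0.04 to 0.60) and a little under 25% higher. Thinned to 1000 UMIs per cell, Fdft1 turned to -0.02 (-0.60 to 0.56). The last 774 bases of Fdft1 overlap Ctsb, the cathepsin B gene on the other strand, which was at 1198 and 1284 CPM. Strand handling is not given in the sources used here, and whether reads of Ctsb entered the Fdft1 count was not tested. Sqle (ENSMUSG00000022351), squalene epoxidase, a rate-controlling enzyme of the chain, had only 22 UMIs among plasma-negative cells, or 0.637 CPM (0.399 to 0.964). Among plasma-positive cells it had 53 UMIs, or 1.26 CPM (0.946 to 1.65). The Sqle log2 ratio of 0.99 (0.24 to 1.77) was the highest of the 8 and rested on the fewest counts. With cells thinned to 1000 UMIs, which leaves 9 and 12 Sqle UMIs, it was 0.31 (-1.06 to 1.73), below those of Idi1 and Insig1.

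Cyp51 (ENSMUSG00000001467), the lanosterol demethylase, was at 17.5 CPM (16.1 to 18.9) from 603 UMIs in the plasma-negative library and at 15.6 CPM (14.4 to 16.8) from 654 UMIs in the plasma-positive library. With a log2 ratio of -0.16 (-0.33 to -0.003) it was the lowest of the 8, and the intervals of the 2 levels overlapped. At 1000 UMIs per cell Cyp51 turned to 0.03 (-0.30 to 0.35) and Hmgcs1 was lowest, at -0.33. The end of Cyp51 shares 166 bases with Akap9 on the other strand, a gene at 166 and 185 CPM. Msmo1 (ENSMUSG00000031604), the methylsterol oxidase that acts next but one after it, was at 35.5 CPM (33.5 to 37.5) and 34.5 CPM (32.7 to 36.3), from 1225 and 1448 UMIs, and its log2 ratio was -0.04 (-0.15 to 0.07).

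The regulators were close to level. Srebf2 (ENSMUSG00000022463), which encodes SREBP2 and is also its target, was at 19.4 CPM (18.0 to 21.0) from 671 UMIs and 19.3 CPM (18.0 to 20.7) from 812 UMIs, a log2 ratio of -0.01 (-0.16 to 0.14). Insig1 (ENSMUSG00000045294), the sterol-sensitive retention factor and a strong SREBP2 target, was at 7.38 CPM (6.51 to 8.35) from 255 UMIs and 7.81 CPM (6.99 to 8.71) from 328 UMIs, a log2 ratio of 0.08 (-0.16 to 0.32). Thinning every cell to 1000 UMIs, which leaves 58 and 91 Insig1 UMIs, gave a log2 ratio of 0.54 (0.05 to 1.04), and thinning to 2000 UMIs gave 0.15 (-0.20 to 0.51). All 8 genes are protein-coding in GENCODE M21 on GRCm38.

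Read against the whole table, the members split by level, with the 4 more abundant ones lower and the 4 rarer ones higher. Of the 8 genes, 4 were below and 4 above a ratio of 1, while 61.9% of the 12261 genes at 0.5 CPM or more over both libraries were below it. The 4 that were lower, Hmgcs1, Cyp51, Msmo1 and Srebf2, are the 4 that reached 10 CPM, with a median log2 ratio of -0.06. At that level 64.2% of 8249 genes were lower, with a median log2 ratio of -0.04. None of the 8 was lower by 20% or more (a ratio of 0.8 or below), as 5.6% of genes at 0.5 CPM or more and 0.752% of genes at 10 CPM or more were. With cells thinned to 1000 UMIs 1 of the 8, Hmgcs1, was, as were 3.02% of genes at 10 CPM or more. Under TMM or median-of-ratios scaling, or with mitochondrial and ribosomal protein genes left out of the total, Srebf2 moved to the higher side and Hmgcs1, Cyp51 and Msmo1 stayed below 1.

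The 4 higher members were the 4 rarest. Idi1 and Sqle were higher by 25% or more, as were 5.19% of genes at 0.5 CPM or more. Counting error alone widens the ratios of rare genes, so bands of level, chosen after these values were seen, are given beside them. From 5 to 10 CPM, 5.0% of 1279 genes were higher by 25% or more; there 2.82% had a ratio as high as that of Idi1, 5.08% as high as Fdft1 and 22.2% as high as Insig1. From 0.5 to 5 CPM, 18.6% of 2733 genes were higher by 25% or more and 4.61% had a ratio as high as that of Sqle. At 10 CPM or more, 10.7% of genes had a ratio as low as that of Cyp51 and 34.2% as low as that of Hmgcs1.

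The remaining genes of the chain also showed few and small differences. Of the 15 other cholesterol synthesis genes listed, 6 reached 10 CPM, and 3 of these were lower and 3 higher, with a median log2 ratio of -0.004. Pmvk, which adds the second phosphate to mevalonate, was at 12.5 and 15.8 CPM, a log2 ratio of 0.34 (0.16 to 0.52), and was the only one of the 6 higher by 25% or more, as 0.776% of genes at 10 CPM or more were. Fdps, farnesyl diphosphate synthase, was the lowest of the mevalonate steps at -0.10 (-0.28 to 0.08).

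Ebp, a sterol isomerase and the most abundant gene of the chain, was at 107 and 106 CPM, a log2 ratio of -0.02 (-0.08 to 0.05). Lbr, a sterol reductase of the nuclear envelope, was at 0.01 (-0.09 to 0.11). Sc5d, the lathosterol desaturase, had the lowest ratio of the chain, with 19.2 CPM (17.8 to 20.7) and 15.9 CPM (14.7 to 17.2) and a log2 ratio of -0.27 (-0.43 to -0.11). The intervals of the Sc5d levels did not overlap, and its ratio stayed above 0.8.

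**Figure D2:**
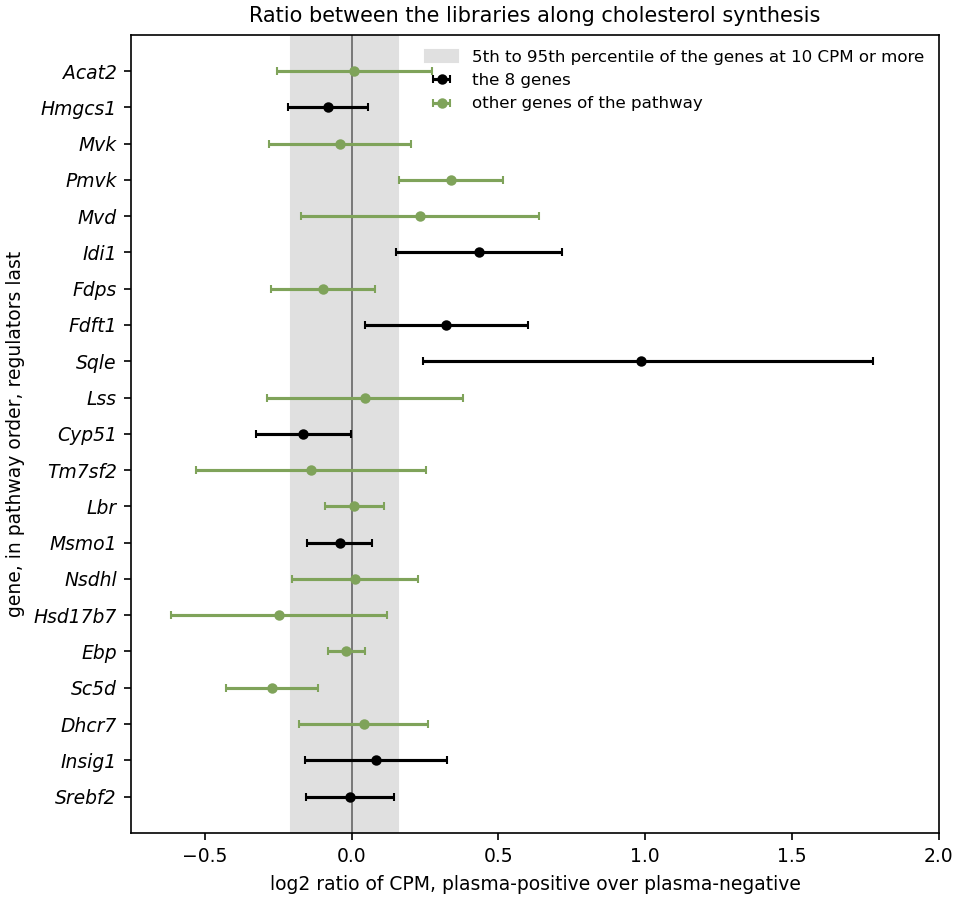
Log2 ratio of CPM, plasma-positive over plasma-negative, for cholesterol synthesis genes in pathway order and for Insig1 and Srebf2, with exact 95% counting intervals; black points are the 8 genes, green points other genes of the chain, and the grey band spans the 5th to 95th percentile, -0.21 to 0.16, of the genes at 10 CPM or more. Most points lie in the band. Pmvk, Mvd, Idi1, Fdft1 and Sqle lie to its right and Sc5d and Hsd17b7 to its left. Of these, Pmvk and Sc5d reached 10 CPM. Rarer genes have wider spans, -0.34 to 0.32 from 5 to 10 CPM and -0.59 to 0.94 from 0.5 to 5 CPM. Mvd, Hsd17b7 and Fdft1 lie within theirs, Fdft1 at the upper edge, and Idi1 and Sqle lie to the right of theirs.

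The regulators of the chain differed as little. Of the 11 SREBP regulators, 10 reached 10 CPM and 6 of these were lower, between -0.13 for Rnf139, a ubiquitin ligase of the endoplasmic reticulum, and 0.08 for Ube2g2, a ubiquitin-conjugating enzyme. Insig2, the other INSIG form, was at 59.0 and 60.6 CPM. None of the 10 was lower by 20% or higher by 25%.

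Of the 8 genes of sterol uptake and transport, 4 reached 10 CPM. Npc2, which carries cholesterol out of the lysosome, had the highest level and ratio of these, from 586 to 679 CPM, a log2 ratio of 0.21 (0.19 to 0.24), and Tmem97 had the lowest at -0.12 (-0.27 to 0.03). Below that level, Stard4, a cytosolic sterol carrier, was at 1.71 and 2.72 CPM, a log2 ratio of 0.67 (0.20 to 1.15). It is a target of SREBP2 and lies in the 0.5 to 5 CPM band.

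In the non-sterol branch 7 of 9 genes reached 10 CPM and 6 of these were lower, where 64.2% of all genes at that level were, with a median log2 ratio of -0.05 against -0.04. Ggps1, which makes geranylgeranyl diphosphate, was the most abundant and the lowest, at 67.3 and 60.6 CPM and -0.15 (-0.23 to -0.07), and Dhdds, of dolichol synthesis, was the highest at 0.01. The fatty acid genes under SREBP1 had 5 of 12 at 10 CPM, 2 lower and 3 higher, from -0.07 for Mid1ip1 to 0.09 for Acly, ATP citrate lyase. Rarer ones past those sizes were Elovl6, with 27 and 45 UMIs, and Pnpla3, with 7 and 5 UMIs, and both intervals reached across a ratio of 1. Of the LXR and efflux or storage list, 8 of 9 genes reached 10 CPM, and 4 were lower and 4 higher. Apoe, the lipid carrier, stood apart at 171 and 1190 CPM, a log2 ratio of 2.80 (2.76 to 2.84), and Mylip, a ubiquitin ligase induced by LXR, was lowest at -0.11 (-0.15 to -0.08).

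Transcripts of the 8 genes were sparse in single cells. At least 1 UMI of any member was found in 30.1% (29.2% to 31.0%) of the plasma-negative cells before thinning, and in 33.5% (32.6% to 34.4%) of the others. The plasma-positive cells also held more UMIs per cell. With each cell thinned to 1000 UMIs, which left out 796 and 603 shallower cells, the shares were 10.8% (10.1% to 11.4%) and 10.9% (10.3% to 11.5%). At 2000 UMIs they were 20.1% and 19.3%. Nearly all cells were microglia, and the share of cells that free RNA would give could not be read from a cell type without these genes.

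Msmo1 was the most widely detected member, in 11.1% and 12.3% of cells before thinning and in 3.75% (3.37% to 4.16%) and 3.42% (3.07% to 3.80%) at 1000 UMIs. Hmgcs1 was found in 7.39% and 7.97% of cells before thinning, and in 2.46% (2.15% to 2.80%) and 2.0% (1.73% to 2.30%) after. Thinned to 1000 UMIs its ratio was 0.796 (0.655 to 0.967), from 231 and 198 UMIs, and at 2000 UMIs it was 0.831 (0.718 to 0.962), so that Hmgcs1 was further below 1 than the ratio of 0.946 over all UMIs. Thinning weighs cells of different depth alike, discards most counts and was a single random draw at each depth. The thinned intervals include 0.946, but the thinned UMIs are part of all UMIs and give no separate check. With cells weighted equally without thinning the log2 ratio of Hmgcs1 was -0.13.

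The variance of the summed member count over its mean, which is 1 for Poisson counts, was 1.07 and 1.02 at 1000 UMIs and 1.07 and 1.06 at 2000 UMIs. At 2000 UMIs the 28 pairs of members were found together in a cell 166 times in the plasma-negative library, against 159 if genes were independent, and 180 times against 166 in the plasma-positive library. The ratios were 1.04 (0.89 to 1.22) and 1.08 (0.932 to 1.255). At 1000 UMIs they were 1.22 (0.927 to 1.59), from 57 against 46.6, and 1.04 (0.779 to 1.35), from 54 against 52.0. Of the cells thinned to 2000 UMIs, 1.79% and 1.71% held 2 or more members.

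Likeness across cells was low as well. Over 9064 plasma-negative and 9759 plasma-positive cells thinned to 1000 UMIs, the genes of 50 CPM or more whose counts followed the summed members most closely were Atf1, Cul3, Mtdh, Ebp and Emc10. Their Pearson correlations, which share the sampling of the same cells, ran from 0.02 to 0.03 in both libraries, and the median over all 3444 genes was 0.00. Each member correlated with the sum of the other 7 at between -0.01 and 0.03. Values this small in sparse counts are no finding.

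Cell states were marked by genes outside the 8, as cells with at least 3 UMIs of a state's genes after thinning to 1000 UMIs, and the member levels were then taken from all UMIs of those cells. Apoe-rich cells made up 1.62% of cells in the plasma-negative library and 6.29% in the plasma-positive library. In the plasma-positive library the summed level was 97.9 CPM (87.1 to 110) in 614 Apoe-rich cells and 115 CPM (111 to 118) in the others, a ratio of 0.855 (0.758 to 0.961). The plasma-negative values were 95.9 CPM (71.8 to 125) in 147 cells and 114 CPM (111 to 118), a ratio of 0.839 (0.627 to 1.10). With Apoe left out of the totals the plasma-positive ratio was 0.866 (0.768 to 0.974).

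Most genes, however, were lower in Apoe-rich cells. In the plasma-positive library 5 of the 8 members were lower there, as were 74.3% of genes at 0.5 CPM or more and 79.3% of those at 10 CPM or more. In the plasma-negative library 5 of 8 were, against 65.0% and 66.6% of genes. These 5 include Sqle, with 0 UMIs in the Apoe-rich cells and only 21 in the others. The median log2 ratio of the members was -0.15 in the plasma-positive library, where that of all genes at 10 CPM or more was -0.21. In the plasma-negative library the order was reversed, at -0.24 for the members and -0.14 for those genes. The member medians take in all 8 genes, also those below 10 CPM. Srebf2 had the lowest ratio in the plasma-positive library, with 31 UMIs or 10.2 CPM (6.90 to 14.4) in Apoe-rich cells and 19.7 CPM (18.3 to 21.2) in the others, a ratio of 0.515 (0.348 to 0.738). There 7.77% of genes at 10 CPM or more were 1.5-fold or more lower. In the plasma-negative library, with 10 Srebf2 UMIs in Apoe-rich cells, the ratio was 0.946 (0.451 to 1.75), and 14.6% of genes were 1.5-fold or more lower. Sqle, Idi1 and Fdft1 went the other way in the plasma-positive library. Sqle was at 2.62 CPM (1.13 to 5.16) from 8 UMIs against 1.04 CPM (0.743 to 1.42) from 40, a ratio of 2.52 (1.02 to 5.46). The intervals of these Sqle levels overlapped. Idi1 and Fdft1 had ratios of 1.20 (0.758 to 1.83) and 1.18 (0.736 to 1.82). Sqle had 0 UMIs in the plasma-negative Apoe-rich cells. That allows up to 5.43 CPM at 3 counts and 6.68 CPM at the upper end of the exact interval.

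Cells marked by a list of genes linked to division, called dividing cells here, had the highest summed member level of the 5 states. The list runs from Top2a and Mki67 to Hmgb2, Tubb5 and Stmn1, and whether each cell was dividing was not tested. In the plasma-negative library the interval of dividing cells overlapped that of every other state, the nearest being chemokine-rich cells at 134 CPM (101 to 175). In the plasma-positive library it overlapped, of the other states there, only that of interferon-rich cells, 126 CPM (112 to 141). The 128 dividing plasma-positive cells held 162 CPM (132 to 197) against 113 CPM (109 to 116) in the others, a ratio of 1.44 (1.17 to 1.75). The 71 dividing plasma-negative cells held 151 CPM (111 to 202) against 114 CPM (110 to 117), a ratio of 1.33 (0.973 to 1.78). In the plasma-positive library 7 of the 8 members were higher in dividing cells, where 50.1% of genes at 0.5 CPM or more and 49.3% of those at 10 CPM or more were. In the plasma-negative library 6 of 8 were, where 48.3% and 50.1% were. Both counts include Sqle, which had 1 UMI in the dividing cells of each library. Msmo1 was the lower one in the plasma-positive library, at a ratio of 0.913 (0.556 to 1.42). There only Idi1 had a ratio interval wholly above 1, and no member had in the plasma-negative library.

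Idi1 had the highest ratio of the members in dividing plasma-positive cells, 18.9 CPM (9.76 to 33.0) from 12 UMIs against 6.43 CPM (5.68 to 7.26). In dividing plasma-negative cells it was at 13.2 CPM (3.58 to 33.7) from 4 UMIs against 4.93 CPM. Of the genes at 5 to 10 CPM, the level of Idi1, 26.3% and 29.1% were 1.5-fold or more higher in dividing cells of these libraries. The 15 other cholesterol synthesis genes, summed, were also higher in dividing cells. In the plasma-positive library they were at 411 against 262 CPM, a ratio of 1.57 (1.38 to 1.77). In the plasma-negative library they were at 355 against 266 CPM, a ratio of 1.34 (1.10 to 1.62). Such a sum weighs abundant genes most, here Ebp and Lbr, at 107 and 42.7 CPM over all plasma-negative cells. Values of each gene in dividing cells are not given here. Dividing cells were deeper in the plasma-positive library, with a median of 4453.5 against 3850 UMIs, and the part of depth in these higher levels was not tested. Between the libraries, dividing cells had a ratio of 1.07 (0.750 to 1.55) and the others 0.991 (0.949 to 1.03).

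Interferon-rich cells had a summed member level of 126 CPM (112 to 141) in the plasma-positive library, 1.12 (0.990 to 1.26) times that of the others, and 95.04 CPM (71.2 to 124) in the plasma-negative library, 0.831 (0.622 to 1.09) times. The ratios lie on opposite sides of 1, each interval reaches 1, and their difference was not tested. For chemokine-rich cells the ratios were 0.923 (0.789 to 1.07) and 1.18 (0.883 to 1.54), and for cells rich in immediate early genes 0.975 (0.851 to 1.11) and 1.06 (0.922 to 1.22), the plasma-positive library first. Outside all 5 states the level was 114 CPM in the plasma-negative and 113 CPM in the plasma-positive library, a ratio of 0.993 (0.948 to 1.04).

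**Figure D3:**
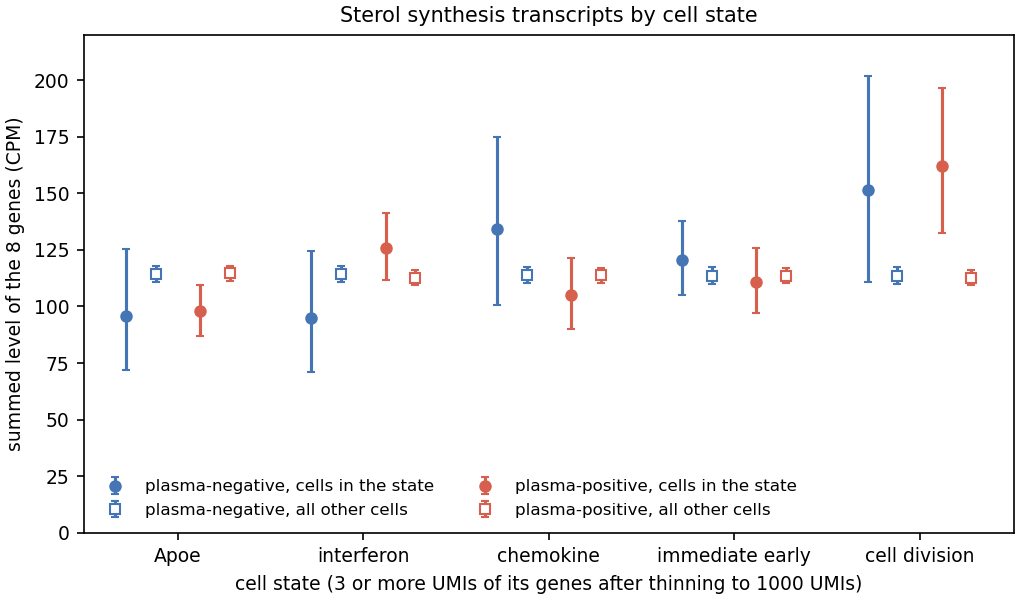
Summed level of the 8 genes in CPM in cells of 5 states (filled circles) and in all other cells of the same library (open squares), with exact 95% Poisson intervals, for the plasma-negative (blue) and plasma-positive (red) libraries. Dividing cells lie highest, at 151 and 162 CPM, and Apoe-rich cells at 95.9 and 97.9 CPM, below the 114 to 115 CPM of the others. Plasma-negative interferon-rich cells lie as low, at 95.04 CPM. In the plasma-negative library the interval of every state overlaps that of the other cells.

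The libraries differed in depth and in the share of mitochondrial UMIs, with medians of 1.08% and 1.27%, so the ratio was also taken within 4 equal bins of the pooled cells. By UMIs per cell, the bin ratios ranged from 0.950 (0.875 to 1.03) up to 1.07 (0.938 to 1.22). By mitochondrial share they ranged from 0.957 (0.883 to 1.04) up to 1.09 (0.986 to 1.20). All 8 intervals reached across 1. Within the plasma-negative library the summed level was lower where the mitochondrial share was higher, at 122 CPM (115 to 129) in the lowest bin and 103 CPM (94.95 to 112) in the highest. In the plasma-positive library these bins were at 119 CPM (111 to 128) and 112 CPM (106 to 119), and their intervals overlapped.

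**Figure D4:**
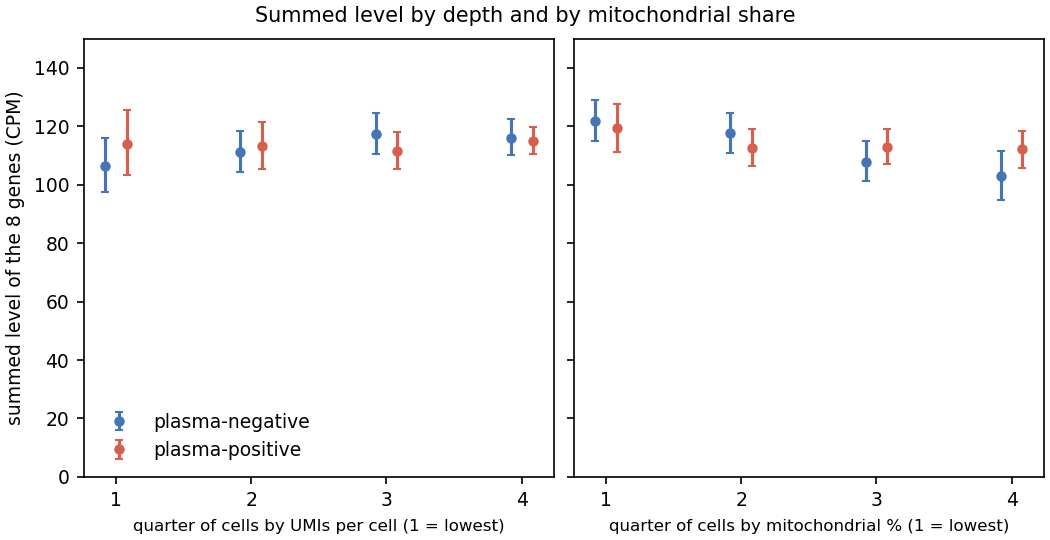
Summed level of the 8 genes in CPM in 4 equal bins of the pooled cells by UMIs per cell (left) and by share of mitochondrial UMIs (right), with exact 95% Poisson intervals, for the plasma-negative (blue) and plasma-positive (red) libraries. The intervals of the libraries overlap in every bin; the plasma-negative points fall from 122 to 103 CPM with mitochondrial share.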

How the data were processed

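Each deposited matrix held whole-number UMI counts, not normalized, by gene and cell. The file headers name Cell Ranger 6.1.2 and the submitters' processing notes name Cell Ranger 3.0.1; the build, annotation and cell calling are not given in the sources used here. The deposited feature tables gave the gene names (other columns). Cells were kept with at least 500 UMIs, 300 genes and at most 10% mitochondrial UMIs. Cell barcodes were not used here. Thinning drew the UMIs of each cell at random without replacement, in a single draw per depth. Doublets were not removed in the values reported; Scrublet (scanpy 1.11.5) called 0 cells by its own threshold, and removal at 0.8% per 1000 cells was an alternative. Counts were summed per library and divided by its total. Ratios carry exact conditional binomial, levels Poisson and shares Clopper-Pearson intervals (scipy 1.17.1), and PCR and capture error are not in them. The code was tested on simulated data. TMM came from edgeR 4.0.16. The 8 genes and all lists were chosen with earlier results of these data known. Named besides the 8 are the most abundant, highest and lowest gene of each list at 10 CPM or more, genes lower by 20% or higher by 25%, and the 5 genes most like the members across cells, except some genes that are not reported here; Insig2, Ctsb and Akap9, and the bands of level, were chosen after values were seen. Coordinates are from GENCODE M21 (GRCm38), which held 30934 of 31053 identifiers and may not be the authors' build.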

Additional observations from a re-analysis of the deposited data

How the results depend on the processing

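Over 11 alternatives of cell filter, doublet removal, scaling, thinning, weighting and cell states, of which thinning to 2000 UMIs was chosen after seeing the data, the summed log2 ratio of the 8 genes stayed between -0.06 and 0.04 and their median between 0.03 and 0.10. The number of members lower by 20% or more was 0 except with cells thinned to 1000 UMIs, where it was 1, Hmgcs1 at -0.33, beside 3.02% of all compared genes; there Fdft1 came to -0.02 and Cyp51 to 0.03, both across 0. The cause was not tested. The share of all compared genes at that size ran over all settings from 0.116% with a minimum of 50 CPM to 4.32% with 1 CPM. TMM raised every log2 ratio by 0.04. Srebf2 ranged from -0.02 to 0.17 and kept its sign in 4 of the 11. Sqle, with 22 and 53 UMIs, is limited most by depth. No paired analysis was possible because there was a single library on each side and no test; for the same reason no replicate could be left out.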
